A study of Mus musculus with 9 samples.

Results

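The Fanconi and homologous recombination repair genes examined here are 35 genes, chosen by name, out of the 55401 genes of the deposited tables. They comprise the genes of the Fanconi core complex and its partners, the BRCA genes, the group of Rad51c, Rad51d, Xrcc2, Xrcc3 and Rad54l, the end resection factors, the junction nucleases and the checkpoint kinases. All 35 were found by gene name in each table, and each had at least 30 reads in every library. All 35 also passed the limit for testing, a mean normalized count of at least 10, in each of 3 comparisons.

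RNA-Seq was performed on H9M cells and compared 3 states of color-coded clones, to learn what transcriptional differences accompany clonal expansion. H9M cells are Lin- bone marrow cells of congenic C57BL/6-Ly5.1 (CD45.1+) mice that carry a gammaretroviral vector expressing murine Meis1 and Hoxa9 with a puromycin resistance gene. In all groups the cells also carry a lentiviral color code vector (FGB-D). Such clones were pooled and transplanted, with helper bone marrow, into lethally irradiated C57Bl6/J recipients, whose age is not given in the sources used here. Splenocytes were sorted as CD45.1+ EGFRt bright cKit+ CD11b dim or negative cells of 1 color code. The pre-malignant group holds 3 clones of mouse #15 (33BC-D, 38BC-D, 43BC-D), which was killed early, before leukemia. The de novo expanded group consists of clone 38BC-D from mouse #13, clone 43BC-D from mouse #14 and clone 33BC-D from mouse #17 at the leukemic endpoint. The stably expanded group is a single clone, 34BC-D, from the same mice #13, #14 and #17. No other group holds this clone, so the clone and the stably expanded state cannot be told apart. Since all 3 pre-malignant libraries come from 1 mouse, that mouse and the pre-malignant state cannot be told apart, and the p-values measure only the spread between these libraries. The deposited columns name a group but not a clone or mouse, so each group's libraries are called 1, 2 and 3 in column order. Whether equal numbers in different groups mean the same mouse or clone is not known. The tests took no account of mice or clones that groups share. Where 3 values are given for a group, they are those of libraries 1, 2 and 3.

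Fanconi proteins repair DNA interstrand crosslinks that block replication forks. The core complex attaches ubiquitin, with the E2 enzyme UBE2T, to the paired proteins FANCD2 and FANCI, which in turn bring in nucleases such as those held by SLX4. The resulting break is resected by MRE11, RAD50 and NBN together with CtIP (encoded by Rbbp8) and EXO1, and BRCA1, BARD1, PALB2 and BRCA2 prepare the single strand for pairing with an intact copy. ATR and its activator TOPBP1 signal through CHK1 at stalled forks, and ATM signals through CHK2 at double-strand breaks. Blood stem cells depend on this pathway, and its inherited loss causes bone marrow failure and leukemia in Fanconi anemia. Many of these genes are transcribed mainly in the S and G2 phases, so their RNA also follows the share of cycling cells in a sample.

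Each library held between 10379739 and 15551196 reads on genes, with 8.54% to 13.1% of them on mitochondrial genes. Of the genes behind the sort and the design, Kit was present in all libraries (142 to 287 CPM, reads scaled by the total reads on genes), as were Hoxa9 (315 to 687 CPM) and Meis1 (535 to 1099 CPM). Markers of other cells were low for T cells (at most 2.81 CPM summed over 6 genes) and platelets (at most 3.04 CPM over 5 genes, with Pf4 at 0 reads in every leukemic library). Summed B cell markers were higher in pre-malignant cells (221 to 270.2 CPM) than in the stably expanded (85.5 to 107 CPM), while the de novo expanded ranged from 73.6 to 222 CPM. Summed macrophage markers ranged from 53.5 to 242 CPM with C1qa at no more than 6 reads. Summed erythroid markers reached 17.7 to 34.7 CPM in pre-malignant, 2.09 to 13.4 CPM in de novo expanded and 1.45 to 23.0 CPM in stably expanded cells. Of the sort genes, Kit was lower in stably expanded (200 to 231 CPM) than in pre-malignant cells (245 to 287 CPM) and Itgam, which encodes CD11b, was higher (58.0 to 85.7 against 40.7 to 49.9 CPM), both without overlap. The B cell sums, Kit and Itgam thus separated stably expanded from pre-malignant cells, and the erythroid sums separated de novo expanded from pre-malignant cells. The low platelet sums also lay lower in de novo expanded (1.17 to 2.16 CPM) than in pre-malignant cells (2.20 to 3.04 CPM), without overlap. The other pairs of groups overlapped in these values. The part of these genes in the repair gene values was not tested. In bulk RNA, fewer cells of a type and less RNA per cell cannot be told apart.

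The repair genes spanned a 32-fold range of levels per length. With the normalized count divided by the summed exon length in kilobases (kb) and averaged over 9 libraries, Topbp1 stood at 489 and Rad50, the coiled-coil subunit of the MRE11 complex, at 407. Their 9 values overlapped with each other, but Rad50 did not overlap with the next gene, Nbn (213), which marks the single gap in the order. Below it the range of every gene overlapped with that of the next, from Atm (189.8), Brca1 (176) and Mre11a (171) down to Fancc (24.2), Rad51c (19.1) and Ube2t (15.2). Among the core complex genes, Fanca (128) and Fancg (109), whose products bind each other, had the highest levels per length, and the others lay at 79.9 (Fancm) or below. The exon length counts every annotated exon, which can lower the value of genes with long rare transcripts, and it was longest for Atr (48.3 over 23629 bases).

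**Figure D1:**
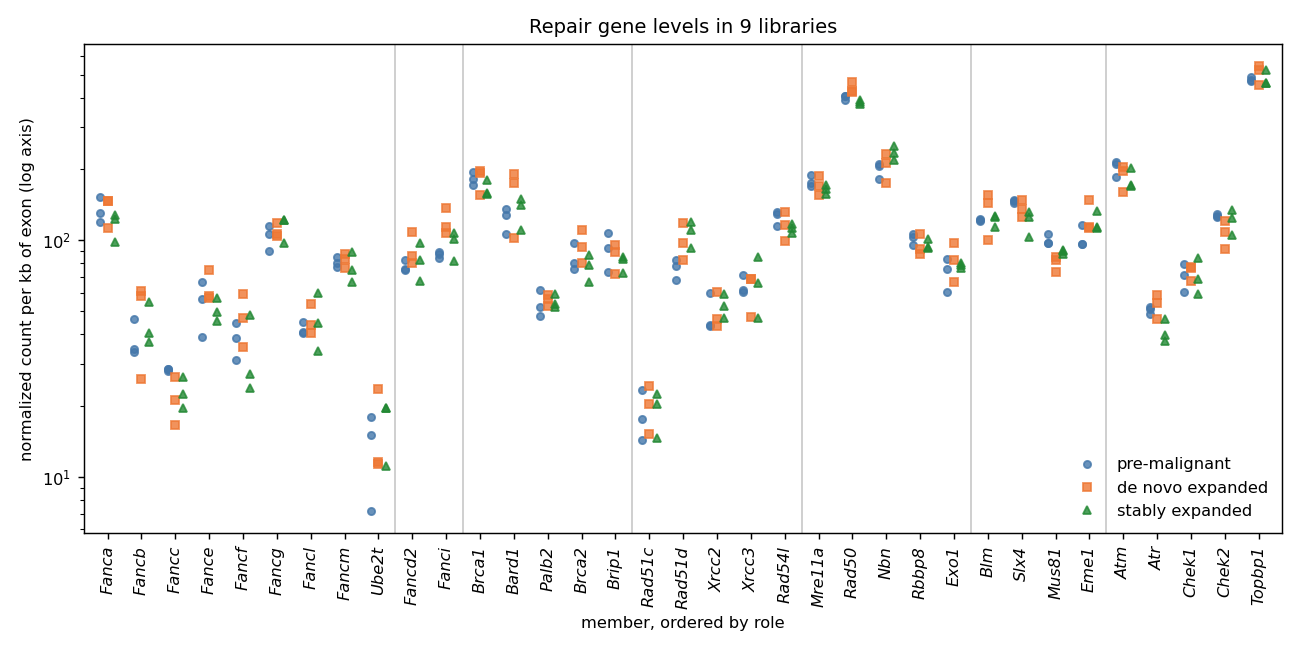
Level of each of the 35 repair genes in the 9 libraries, as normalized count per kb of exon on a log axis, with genes ordered by role and grey lines between the roles. Points are single libraries, circles pre-malignant, squares de novo expanded and triangles stably expanded, and Topbp1 and Rad50 lie above all other genes in each group.

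The spread between libraries was close to that of other genes at these levels. The median SD of log2 values within groups was 0.19 over the 35 genes, beside 0.28 over 13960 genes with a mean of at least 10 and 0.21 over the 9562 genes in the same range of mean levels. Topbp1 varied least, with a highest value 1.2 times its lowest over all 9 libraries, followed by Mre11a (1.21), Rbbp8 (1.22) and Rad50 (1.23). Ube2t (3.29), Fancf (2.49) and Fancb (2.35) varied most, and Ube2t (33 to 104 reads per library) and Fancf (30 to 91 reads) also had the fewest reads.

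Single libraries of a group stood apart. De novo expanded library 1 held the highest of the 9 values for 10 repair genes and library 2 for 8, while library 3 of the same group held the lowest for 10. Of the 35 genes, 26 and 24 lay above their own mean in de novo expanded libraries 1 and 2, and 11 did in library 3. The pre-malignant libraries showed the same kind of spread, with 12, 25 and 14 genes above their own mean, as did the stably expanded (22, 9 and 16). The 35 genes summed to 2236, 2266 and 1945 CPM in de novo expanded cells, to 1983, 2169 and 2051 CPM in pre-malignant cells and to 1995, 1978 and 1994 CPM in stably expanded cells. De novo expanded library 3 also differed from the other 2 of its group in B cell markers (73.6 against 164 and 222 CPM) and in macrophage markers (242 against 53.5 and 86.1 CPM). Of the 6 macrophage genes, only Adgre1 and Vcam1 passed the limit for testing. Adgre1 was at most 78.4 CPM in this group, so the sum of 242 CPM rests mainly on Vcam1.

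**Figure D2:**
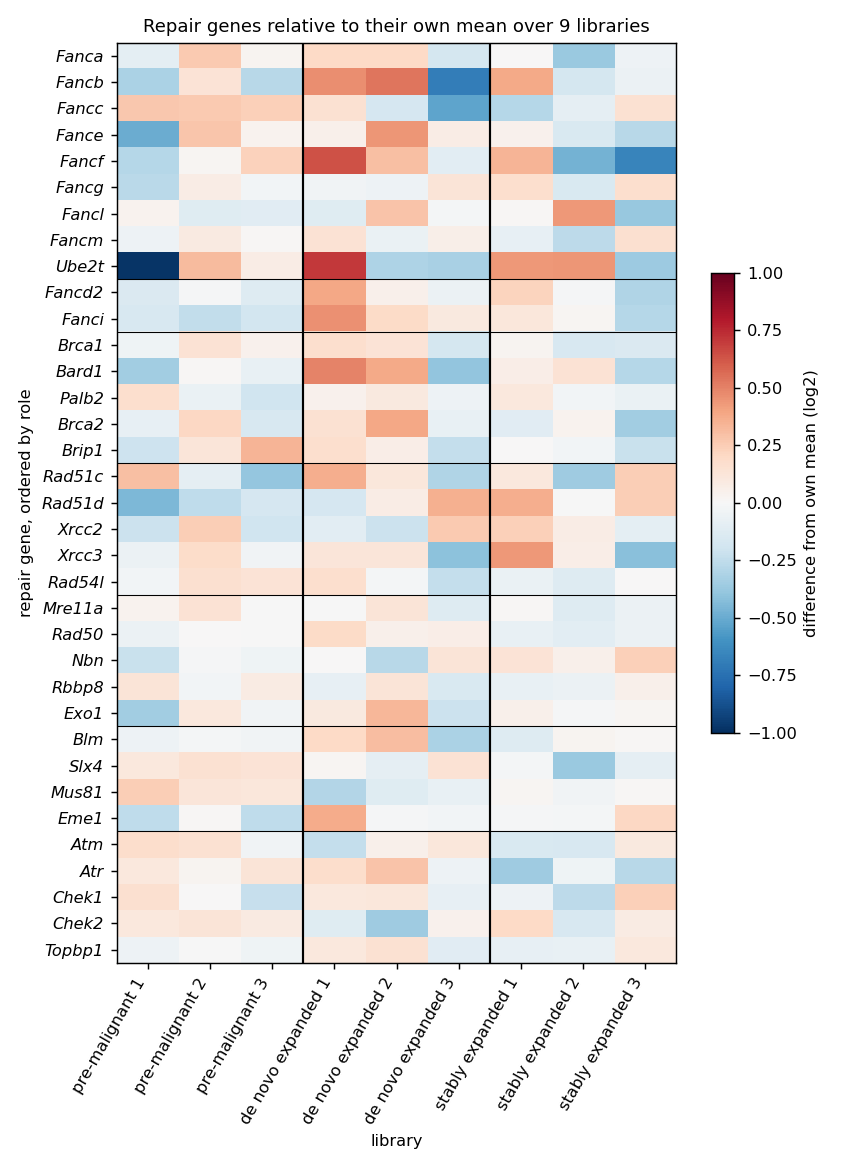
Difference of each repair gene from its own mean over 9 libraries, on the log2 scale of normalized count + 1, with 1 column per library (black lines separate the groups) and 1 row per gene. Red is above and blue below the mean, and the de novo expanded columns 1 and 2 are mostly red (26 and 24 of 35 genes above) where column 3 is mostly blue (11 above).

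Between de novo expanded and pre-malignant clones no repair gene was called. A call needed an adjusted p under 0.05 in limma and a change of at least 2-fold, and 0% of all 14195 genes tested passed it. At an unadjusted p under 0.05, 1 of 35 repair genes (Fanci) stood out, against 11.3% of all genes, and the groups did not overlap for 6 of 35 genes, against 19.1% of all genes (Fanci, Rad50 and Rad51d above and Chek2, Fancc and Mus81 below). The median log2 fold change of the repair genes was 0.08 beside 0.01 over all genes. Of the 35, 25 had a fold change above 0, against 51% of all genes. The 95% interval lay within 2-fold for 33 of 35 (60.5% of all genes), the exceptions being Fancb and Ube2t. This share was not computed for genes at the levels of the repair genes, here or in the other comparisons. Genes at those levels had a median SD within groups of 0.21, beside 0.28 over all genes with a mean of at least 10.

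By role, the core complex and Ube2t had 8 of 9 genes above 0 (median 0.13), the ID2 pair both (median 0.36), and the BRCA genes and partners 4 of 5 (median 0.08). The group of Rad51c, Rad51d, Xrcc2, Xrcc3 and Rad54l, the resection genes and the checkpoint genes each had 3 of 5 above 0, with medians of 0.06, 0.07 and 0.07. The helicase Blm and the nuclease genes were split evenly, 2 of 4 (median 0.02).

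Fanci (ENSMUSG00000039187.16, chr7:79391929-79450264, plus strand, GRCm38.p6), the partner of FANCD2 in the ubiquitylated clamp, read 513, 485 and 504 normalized counts in pre-malignant cells and 789, 655 and 616 in de novo expanded cells. All 3 de novo expanded values were above the pre-malignant. The difference was a log2 fold change of 0.47 ± 0.13 (SE, 95% interval 0.16 to 0.77), with an adjusted p of 0.379 in limma. In the stably expanded libraries Fanci read 622, 581 and 471, which overlaps with both other groups. Fanci shares 16% of its exon bases with Polg on the opposite strand, and whether reads were counted by strand is not given in the sources used here. Over 10% of exon bases were so shared in 7 repair genes (Fanca, Fancc, Fancf, Fancl, Fanci, Rad54l and Eme1). The partner of Fanci, Fancd2, read 595, 652 and 601 in pre-malignant cells and 863, 682 and 633 in de novo expanded cells, with an overlap (0.24 ± 0.14, adjusted p = 0.543).

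Rad51d (ENSMUSG00000018841.17, chr11:82876434-82890614, minus strand), which acts in strand pairing during recombination, read 251, 288 and 307 in pre-malignant cells, 307, 362 and 439 in de novo expanded cells, and 443, 342 and 408 in stably expanded cells. The stably expanded values lay above all pre-malignant values. The lowest de novo expanded value (306.56) touched the highest pre-malignant (306.58) when all 9 libraries were scaled together, and lay above it in the deposited scaling of the 6 libraries of the pair. On the log2 scale the fold change was 0.40 ± 0.18 (adjusted p = 0.456) for de novo expanded and 0.49 ± 0.15 (95% interval 0.15 to 0.84, adjusted p = 0.075) for stably expanded over pre-malignant. The first was 0.26 without de novo expanded library 3. Both comparisons share the pre-malignant libraries, so they are not independent of each other. Its relatives Rad51c, Xrcc2 and Xrcc3 overlapped between all pairs of groups.

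Bard1 (ENSMUSG00000026196.7, chr1:71027498-71103146, minus strand), the RING partner of BRCA1, read 598, 768 and 724 in pre-malignant cells and 1075, 989 and 579.9 in de novo expanded cells. Libraries 1 and 2 exceeded every other library, and library 3 lay below all. The log2 fold change of 0.32 ± 0.24 had an adjusted p of 0.636. It was 0.15 without library 1 of that group and 0.21 without library 2. Without de novo expanded library 3 it was 0.59, with an adjusted p of 0.041, still under 2-fold. In that setting 6 repair genes had an unadjusted p under 0.05 (Bard1, Blm, Fancb, Fancd2, Fanci and Mus81), against 21.8% of all genes, and 214 of all genes were called, none of them a repair gene. The stably expanded libraries read 799, 844 and 625 for Bard1, within the range of the de novo expanded.

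Fancc, a core complex subunit, read 239.5, 239 and 235 in pre-malignant cells, 221, 177 and 138 in de novo expanded cells and 163, 186 and 222 in stably expanded cells. All leukemic values lay below the pre-malignant. This gave a log2 fold change of -0.42 ± 0.20 (adjusted p = 0.481) for de novo expanded and -0.33 ± 0.18 (adjusted p = 0.267) for stably expanded, again against the same pre-malignant libraries. The first was -0.25 without de novo expanded library 3. Of its exon bases, 18.6% are shared with genes on the opposite strand.

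Mus81, the catalytic subunit of a nuclease that cuts branched DNA, read 378, 348 and 346 in pre-malignant cells, 261, 293 and 304 in de novo expanded cells and 323, 312 and 322 in stably expanded cells. The 3 groups did not overlap for this gene, with the de novo expanded lowest and the stably expanded between. This gave a log2 fold change of -0.30 ± 0.14 (adjusted p = 0.456) for de novo expanded and -0.16 ± 0.13 (adjusted p = 0.481) for stably expanded over pre-malignant, and 0.16 ± 0.14 (adjusted p = 0.898, and 0.09 without de novo expanded library 1) for stably over de novo expanded. Eme1, the partner subunit of MUS81, had fold changes of the opposite sign (0.29 ± 0.17 and 0.22 ± 0.15 over pre-malignant) and overlapped between groups.

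Chek2, the ATM effector kinase, read 379, 385 and 374 in pre-malignant cells and 324, 275 and 362 in de novo expanded cells, with no overlap. On the log2 scale the fold change was -0.24 ± 0.15 (adjusted p = 0.567), and -0.13 without de novo expanded library 2. In the stably expanded libraries it read 404, 314 and 372, which spans the pre-malignant values, and the log2 fold change over de novo expanded was 0.18 ± 0.17 (adjusted p = 0.905), with a range of 0.08 to 0.28 when single libraries were left out.

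**Figure D3:**
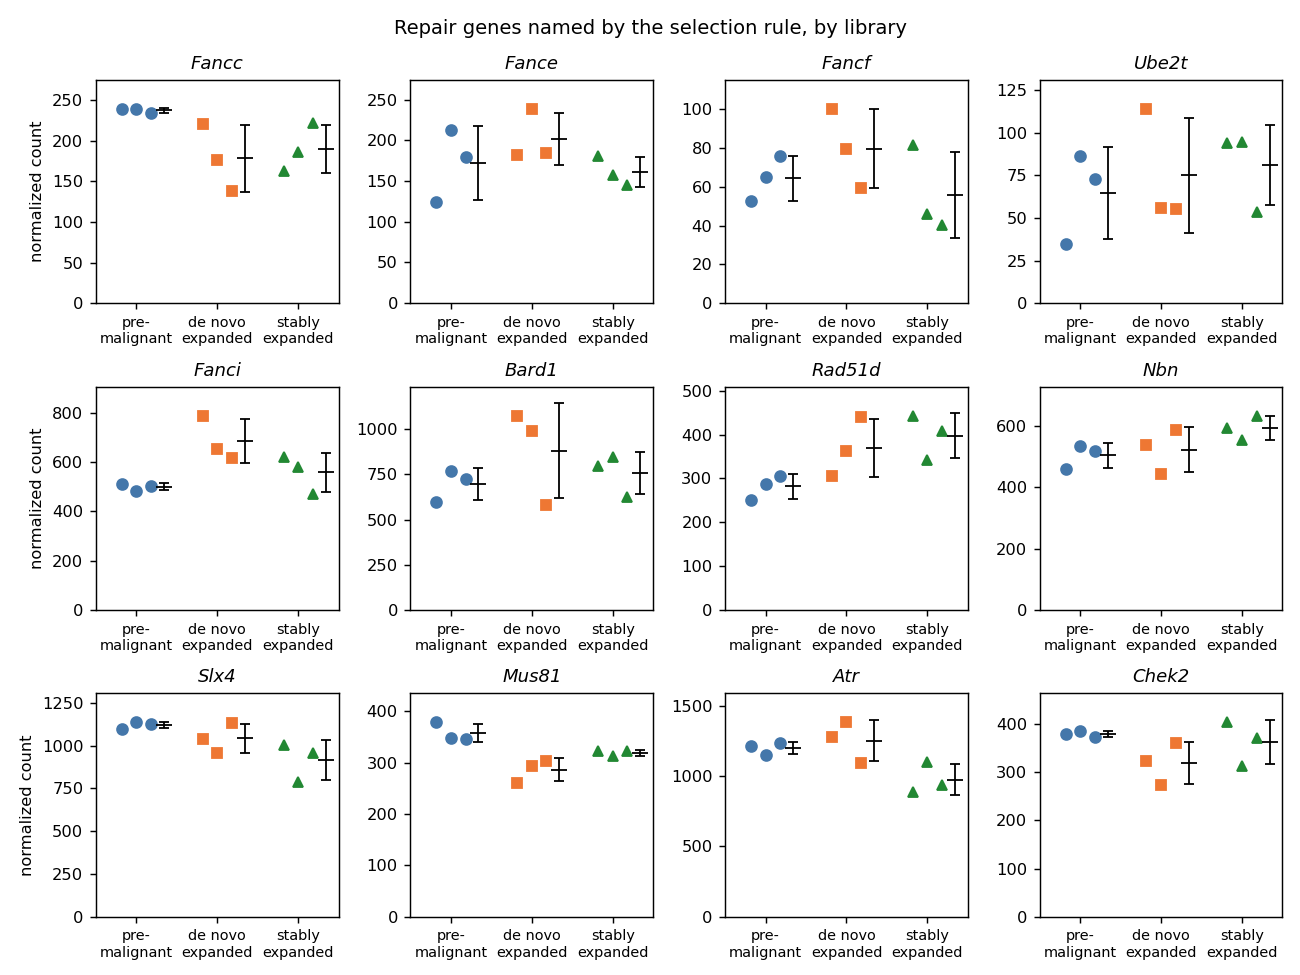
Normalized counts of the 12 repair genes named by the selection rule (axes start at 0), with 1 point per library and, beside the points, the group mean ± SD (n = 3). Fancc and Mus81 sit highest in the pre-malignant group, Rad51d lowest, and the de novo expanded libraries of Bard1 split between 1075 and 989 on one side and 579.9 on the other.

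Promoter sequences are shown for Fanci, which had the smallest p among the repair genes in the first comparison, and for Bard1 and Chek2, whose promoters hold the letters of an E2F site. E2F factors drive genes of the G1 to S transition. The sequences are those of RefSeq on GRCm38.p6, each 300 bases long and running from 250 bases before the start to 50 after it. Capitals mark TTTCCCGC (E2F letters), TTTGAA (letters of a cell cycle homology region) and CCAAT, on either strand (a match on the minus strand reads GCGGGAAA, TTCAAA or ATTGG).
Fanci (chr7:79392088-79392387, plus strand): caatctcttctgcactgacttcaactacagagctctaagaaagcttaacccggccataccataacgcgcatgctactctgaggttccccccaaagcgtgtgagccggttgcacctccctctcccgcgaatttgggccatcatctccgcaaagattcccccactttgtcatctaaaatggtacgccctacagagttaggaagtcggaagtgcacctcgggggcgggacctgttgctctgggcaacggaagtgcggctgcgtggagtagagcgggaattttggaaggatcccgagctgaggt
Bard1 (chr1:71102923-71103222, minus strand): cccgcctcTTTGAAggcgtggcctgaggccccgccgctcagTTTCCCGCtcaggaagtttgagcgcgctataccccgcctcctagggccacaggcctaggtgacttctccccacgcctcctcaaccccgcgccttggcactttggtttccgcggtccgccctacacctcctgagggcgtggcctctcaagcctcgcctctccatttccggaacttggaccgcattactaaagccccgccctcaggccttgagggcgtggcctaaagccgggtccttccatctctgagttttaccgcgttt
Chek2 (chr5:110839733-110840032, plus strand): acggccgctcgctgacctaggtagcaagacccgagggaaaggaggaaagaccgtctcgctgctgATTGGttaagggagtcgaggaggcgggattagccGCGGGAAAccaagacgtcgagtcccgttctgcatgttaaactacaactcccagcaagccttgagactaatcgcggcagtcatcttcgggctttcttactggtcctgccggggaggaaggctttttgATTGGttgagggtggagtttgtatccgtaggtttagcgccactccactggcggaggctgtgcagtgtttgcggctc

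Promoters were found for 28 of the 35 genes, as 30 sequences. TTTCCCGC was present in 5 of them, those of Bard1, Brca2, Chek2, Fancg and Rad51c (16.7%), against 1.07% of all 32851 promoters. CCAAT was present in 60% against 37.4%, TTTGAA in 6.67% against 17.9%, and the other E2F letters TTTGGCGC in none against 0.514%. In Bard1 TTTCCCGC starts 209 bases before the start, and in Chek2 its reverse complement starts 152 bases before. The promoter of Fanci holds none of these letters. The 5 genes with TTTCCCGC did not share a direction in this comparison, since Bard1 (0.32), Brca2 (0.19), Fancg (0.11) and Rad51c (0.13) were above 0 and Chek2 (-0.24) below. Each of the 5 had an adjusted p of at least 0.567. The letters describe these windows and say nothing of binding.

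Between stably expanded and pre-malignant clones no repair gene was called either, against 2.75% of all 13968 genes tested. At an unadjusted p under 0.05, 3 of 35 repair genes stood out (Rad51d, Atr and Slx4), against 25.4% of all genes, and the groups did not overlap for 6 of 35, against 30.7% (Nbn and Rad51d above and Atr, Fancc, Mus81 and Slx4 below). The median log2 fold change was -0.005 beside 0.004 over all genes, with 16 genes above 0 (50.5% of all genes) and 19 below. The interval lay within 2-fold for 33 of 35 (63% of all genes), the exceptions being Fancf and Ube2t. The BRCA genes and partners had 3 of 5 genes below 0 (median -0.13) and the checkpoint genes 4 of 5 (median -0.07), while both ID2 genes were above 0 (median 0.11).

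Atr (ENSMUSG00000032409.15, chr9:95857597-95951781, plus strand), the kinase of the replication checkpoint, read 1213, 1153 and 1234 in pre-malignant cells, 1276, 1381 and 1092 in de novo expanded cells and 886, 1097 and 935 in stably expanded cells. All stably expanded values were below the pre-malignant, and they overlapped with the de novo expanded through 1 library of each (1097 and 1092). This gave a log2 fold change of -0.31 ± 0.11 (95% interval -0.55 to -0.06, adjusted p = 0.111) over pre-malignant and -0.36 ± 0.14 (95% interval -0.68 to -0.04, adjusted p = 0.891) over de novo expanded. Its activator Topbp1 read between 5061 and 6092 in all groups, with a log2 fold change of 0.01 ± 0.09 over pre-malignant and -0.07 ± 0.11 over de novo expanded. Chek1, the kinase that ATR activates, had -0.004 ± 0.17 and -0.07 ± 0.17.

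Slx4 (ENSMUSG00000039738.16, chr16:3979105-4003770, minus strand), the scaffold of structure-specific nucleases, read 1099, 1136 and 1125 in pre-malignant cells and 1006, 787 and 958 in stably expanded cells, with no overlap. On the log2 scale the fold change was -0.30 ± 0.11 (95% interval -0.55 to -0.04, adjusted p = 0.135), and -0.19 without stably expanded library 2. The de novo expanded libraries read 1037, 959.8 and 1131, overlapping with both.

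Nbn, the regulatory subunit of the MRE11 complex, read 458, 532 and 519 in pre-malignant cells, 538, 442 and 585 in de novo expanded cells and 591, 555 and 633 in stably expanded cells. The stably expanded values lay above the pre-malignant without overlap (0.24 ± 0.12, adjusted p = 0.252) and overlapped with the de novo expanded (0.19 ± 0.14, adjusted p = 0.893). Without de novo expanded library 2 the latter was 0.08. The other subunits of the complex overlapped between stably expanded and pre-malignant cells, Mre11a at -0.11 ± 0.10 and Rad50 at -0.06 ± 0.08.

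Ube2t, the E2 enzyme of the core complex, read 34.7, 86.5 and 73.0 in pre-malignant cells and 94.1, 94.6 and 53.7 in stably expanded cells. The log2 fold change of 0.37 ± 0.38 had a 95% interval of -0.48 to 1.22, which includes a 2-fold rise. Without pre-malignant library 1 it was -0.02, and without stably expanded library 3 it was 0.64. The de novo expanded libraries read 114, 55.8 and 55.0.

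Between stably and de novo expanded clones no repair gene was called, against 0.00727% (1 gene) of 13758 tested. Atr had an unadjusted p under 0.05, against 4.83% of all genes, and the groups did not overlap for 3 of 35 (Fance, Rad50 and Mus81), against 9.61%. The median log2 fold change was -0.06 beside -0.002 over all genes, and 25 of 35 genes were below 0, while 49.6% of all genes were above. The interval lay within 2-fold for 33 of 35 (62.2% of all genes), again except Fancf and Ube2t. All 5 BRCA genes and partners (median -0.13) and both ID2 genes (median -0.23) were below 0. With de novo expanded library 3 left out, the median fell to -0.13, and 6 repair genes had an unadjusted p under 0.05 (Atr, Bard1, Blm, Brca2, Fanca and Fanci), against 20.4% of all genes.

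Fancf, the adaptor of the core complex, read 52.5, 65.1 and 75.7 in pre-malignant cells, 100.3, 79.3 and 59.5 in de novo expanded cells and 81.4, 45.9 and 40.3 in stably expanded cells. Its log2 fold change of -0.54 ± 0.36 (stably over de novo expanded, adjusted p = 0.891) rested on 30 to 91 reads per library. It was -0.84 without stably expanded library 1 and -0.34 without stably expanded library 3. Of the exon bases of Fancf, 15.0% are shared with Gas2 on the opposite strand. Fance, which links the core complex to FANCD2, read 182, 239 and 185 in de novo expanded cells and 181, 158 and 145 in stably expanded cells, with no overlap but nearly the same value (182 and 181) in the nearest libraries (-0.32 ± 0.19, adjusted p = 0.891, and -0.19 without de novo expanded library 2). The pre-malignant libraries overlapped with both, at 124, 213 and 180.1. Rad50 read 2499, 2263 and 2283 in de novo expanded cells, 2069, 2029 and 2102 in stably expanded cells and 2092, 2185 and 2175 in pre-malignant cells, and its log2 fold changes were -0.18 ± 0.09 for stably over de novo expanded (adjusted p = 0.891) and 0.15 ± 0.09 for de novo expanded over pre-malignant (adjusted p = 0.553). The de novo expanded values of Rad50 were above all others.

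The remaining genes at the centre of the pathway overlapped between all groups. Brca1 read between 1323 and 1678 over the 9 libraries, with a log2 fold change of 0.01 ± 0.12 for de novo expanded and -0.14 ± 0.10 for stably expanded over pre-malignant. Brca2, which acts on the resected strand, read between 908 and 1509.8 (0.19 ± 0.15 and -0.13 ± 0.13), and Palb2, which bridges BRCA1 and BRCA2, between 351 and 453 (0.08 ± 0.14 and 0.04 ± 0.14). Atm, the kinase of the double-strand break response, read between 1654 and 2207 (-0.10 ± 0.12 and -0.17 ± 0.11). Blm, the helicase that dissolves double junctions, read between 1057 and 1077 in pre-malignant cells and more widely, 1258, 1359 and 881, in de novo expanded cells (0.12 ± 0.16). The last 12 genes (Fanca, Fancb, Fancg, Fancl, Fancm, Brip1, Rad51c, Xrcc2, Xrcc3, Rad54l, Rbbp8 and Exo1) also overlapped in every comparison. Their log2 fold changes lay between -0.10 and 0.27 for de novo expanded and between -0.20 and 0.20 for stably expanded over pre-malignant, and between -0.21 and 0.09 for stably over de novo expanded, and their smallest adjusted p was 0.367.

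**Figure D4:**
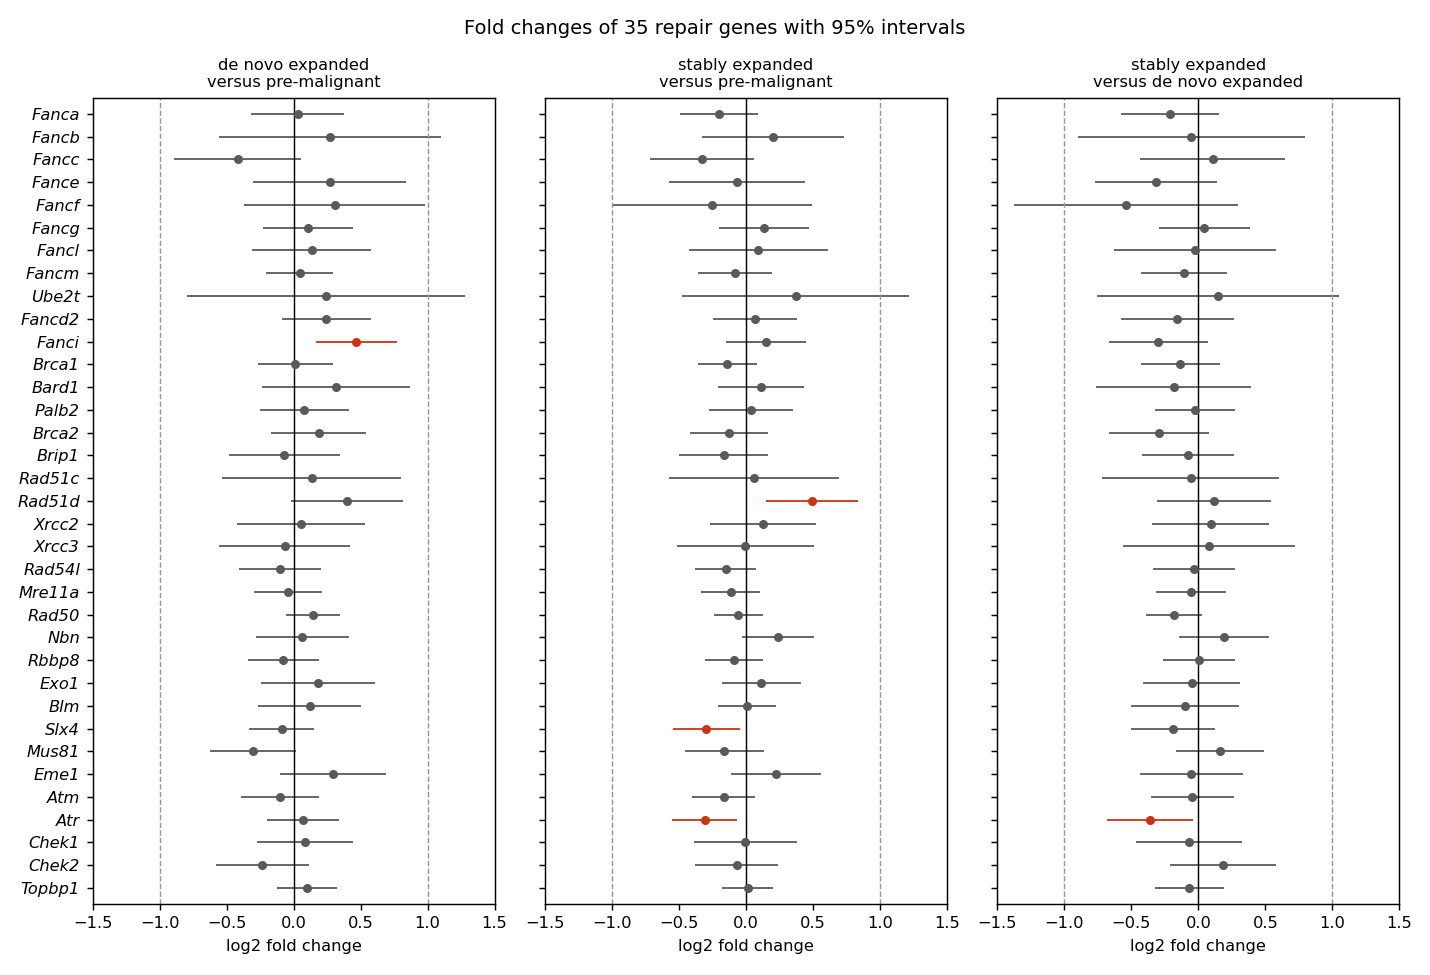
Log2 fold change with its 95% interval (limma) for the 35 repair genes in the 3 comparisons, with dashed lines at 2-fold. Red marks an unadjusted p under 0.05 (Fanci on the left, Rad51d, Slx4 and Atr in the middle, Atr on the right), and no adjusted p is under 0.05.

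The other genes of the pathway were counted from fixed lists. Of 20 other Fanconi and crosslink repair genes, 15 were above 0 between de novo expanded and pre-malignant (median 0.08, with 2 at an unadjusted p under 0.05, beside 51% and 11.3% of all genes) and 16 between stably expanded and pre-malignant (median 0.14, with 3, beside 50.5% and 25.4% of all genes). Of 26 other homologous recombination genes, 19 and 17 were above 0 (medians 0.09 and 0.07, with 3 and 2 at an unadjusted p under 0.05). Of 14 other replication checkpoint genes, 9 and 10 were above 0 (medians 0.16 and 0.09, with 1 and 5), and of 12 end joining genes 6 and 6 (medians 0.02 and -0.02, with 1 and 2). Between stably and de novo expanded clones the medians of these 4 lists lay between -0.06 and 0.06, with 1 gene in all at an unadjusted p under 0.05 (4.83% of all genes).

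None of these genes was called in any comparison. Over these lists and the cycling genes together, the smallest p between de novo expanded and pre-malignant belonged to Uhrf1, a sensor of crosslinks and of hemimethylated DNA (0.28 ± 0.09, adjusted p = 0.384), and to Ccne2, a cyclin of the G1 to S transition (0.43 ± 0.14, adjusted p = 0.399). Between stably expanded and pre-malignant, Ccne2 (0.65 ± 0.14, adjusted p = 0.019) and Cdc25a, the phosphatase that the checkpoint degrades (0.55 ± 0.13, adjusted p = 0.032), passed the adjusted threshold but not 2-fold. The third such gene was Rrm2, a subunit of ribonucleotide reductase (0.52 ± 0.13, adjusted p = 0.040). Between stably and de novo expanded, Mdc1, which holds ATM signaling at breaks (-0.28 ± 0.11), and Rmi2, a partner of BLM (0.31 ± 0.15), both had an adjusted p of 0.891.

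Genes of cycling cells, such as Mki67, Top2a and the Mcm helicase genes, were all higher in mean in both leukemic groups than in pre-malignant cells. All 20 were above 0 between de novo expanded and pre-malignant (median 0.24, with 4 at an unadjusted p under 0.05, beside 51% and 11.3% of all genes) and between stably expanded and pre-malignant (median 0.26, with 10, beside 50.5% and 25.4%), and 14 of 20 between stably and de novo expanded (median 0.06, with none, beside 49.6% and 4.83%). They summed to 4430, 4942 and 5389 CPM in pre-malignant cells, to 6211, 6062 and 4950.4 CPM in de novo expanded cells and to 6032, 6117 and 5071 CPM in stably expanded cells. The sums overlapped between groups. Library 3 was lowest for both the cycling and the repair genes in the de novo expanded group, as was library 1 in the pre-malignant group. In the stably expanded group library 2 was highest for the cycling genes (6117 CPM) and lowest for the repair genes (1978 CPM). How far the share of cycling cells sets the repair gene values was not tested.

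**Figure D5:**
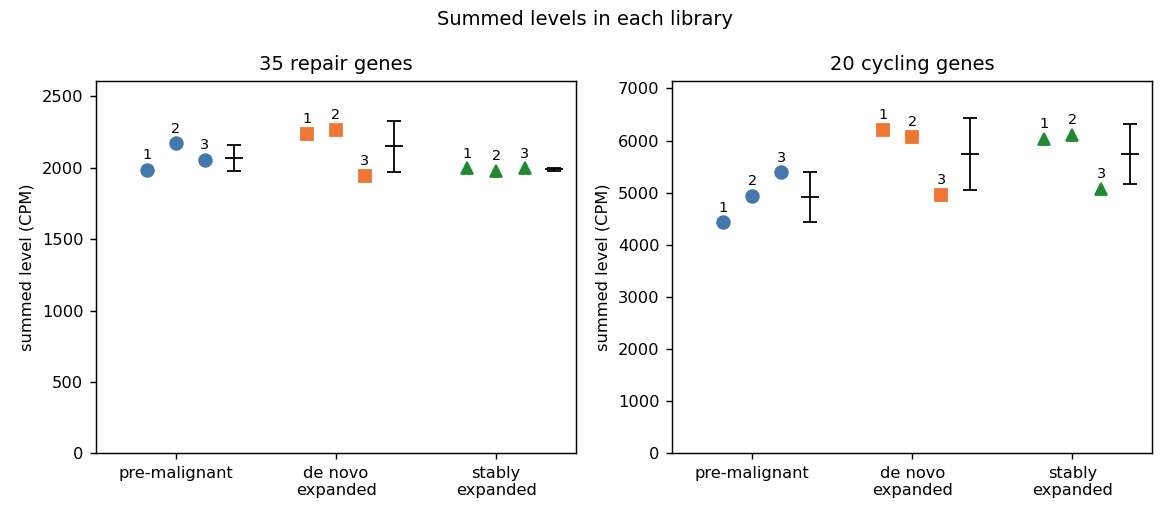
Summed level (CPM, axes from 0) of the 35 repair genes (left) and of the 20 cycling genes (right) in each library, with the library number above each point and the group mean ± SD (n = 3) beside the points. The repair genes sum to between 1945 and 2266 CPM in all groups, and the cycling genes range from 4430 to 6211 CPM.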

How the data were processed

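RNA was extracted from sorted splenocytes in 9 libraries, 3 per group, made with a stranded total RNA kit for very low input and sequenced on an Illumina NextSeq instrument. According to the submitters' processing notes and the paper's methods, reads were trimmed with Trim Galore 0.6.4, aligned with STAR 2.6.1d to GRCm38.p6 (GENCODE M25) and counted with featureCounts 1.6.4, and the strand setting is not given in the sources used here. For each pair of groups the authors normalized the counts of its 6 libraries with DESeq2 and deposited the result as 1 table, a signal in units of normalized counts. The deposited tables also hold an exon length, and the authors' mean, fold changes, test statistics and p-values, which were not used. A genetic change that all groups share, and the gene it concerns, are not reported here.

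Whole reads were recovered by dividing each library by its smallest step, and at least 99.993% of the values above 0 came out whole (tolerance 0.05 reads). Levels of single libraries are these reads divided by DESeq2 size factors over all 9 libraries, while tests used the deposited values of each pair. The main test was limma 3.58.1 (R 4.3.3) with a trend, on log2(normalized count + 1), two-sided, in genes with a mean of at least 10, with Benjamini-Hochberg adjustment over all genes tested. Fold changes are on that scale and understate the change of low genes. A call needed an adjusted p under 0.05 and at least 2-fold. It was tried on simulated data with changes larger than those of the repair genes, so that trial does not show how it detects changes of their size. Promoter sequences are from RefSeq (GRCm38.p6). Levels and figures were made with Python 3.11.15, pandas 2.3.3, numpy 2.4.6 and matplotlib 3.10.9.

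Values in every library are given for repair genes called, with an unadjusted p under 0.05, or among the 3 largest rises and 3 largest falls of a comparison. The other genes of a list were named by the 2 smallest p per comparison, over the lists together, and Rrm2 because it also passed an adjusted p under 0.05. Comparison values of other named repair genes (Fancd2, Eme1, Topbp1, Chek1, Rad50, Mre11a, Brca1, Brca2, Palb2, Atm, Blm) were chosen after they were seen. The members, lists and alternatives were chosen with earlier results of these data known. As alternatives, the pseudocount was set to 0.1 or 5, the filter to none or a mean of at least 50, and the fit to quantile normalization, edgeR 4.0.16 (quasi-likelihood, TMM) and DESeq2 1.42.0 on recovered reads, 1 fit of all 9 libraries, no fold limit, and leaving out each library.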

Additional observations from a re-analysis of the deposited data

How the results depend on the processing

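No paired analysis was possible because the columns of the tables name a group and not a sample. No repair gene was called in any comparison under any of the alternatives. The median log2 fold change of the repair genes stayed within 0.03 to 0.08 (leaving out single libraries, 0.05 to 0.15) for de novo expanded over pre-malignant, and within -0.08 to -0.05 (-0.13 to -0.02) between stably and de novo expanded. Between stably expanded and pre-malignant it moved from -0.005 to -0.064 with quantile normalization and lay between -0.06 and 0.01 with single libraries left out. Ube2t changed sign to -0.020 in that comparison without pre-malignant library 1 (the range over single libraries was -0.02 to 0.64), and Bard1 passed an adjusted p of 0.05 (0.59, adjusted p = 0.041, against 0.609 to 0.741 with other fits and up to 0.903 with other libraries left out) between de novo expanded and pre-malignant without de novo expanded library 3. The cause was not tested.

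Counts over all genes depended on the setting. Between de novo expanded and pre-malignant, 0 genes were called by limma (1597 at an unadjusted p under 0.05) and by edgeR, 62 by DESeq2, 5 with no filter and 5 in 1 fit of 9 libraries, and 214 without de novo expanded library 3. Between stably expanded and pre-malignant, 384 were called, 531 by DESeq2, 525 with no filter and 6 in 1 fit of 9 libraries. With single libraries left out, 206 to 452 were called. These were 240, 206 and 219 without pre-malignant libraries 1, 2 and 3, and 208, 452 and 413 without stably expanded libraries 1, 2 and 3. Between stably and de novo expanded, 1 gene was called, 32 by DESeq2, 2 with no filter and in 1 fit of 9 libraries, and 508 without de novo expanded library 3. Ube2t (33 to 104 reads) had an interval that passes 2-fold in all 3 comparisons, Fancf (30 to 91 reads) in both with stably expanded cells and Fancb (85 to 207 reads) in the other.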

Other observations

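In the end joining list, Xrcc5 (chr1:72307427-72394952, GRCm38.p6), which encodes the KU80 subunit of the Ku heterodimer, read far below its partner genes and varied more. It was singled out after its values were seen. Xrcc5 reads numbered 14, 40 and 7 in pre-malignant cells, 3, 7 and 129 in de novo expanded cells and 63, 61 and 36 in stably expanded cells (libraries 1, 2 and 3). As normalized counts these were 14.7, 37.2 and 6.46, then 3.42, 6.10 and 116, then 57.0, 56.0 and 48.3. The highest value was 34 times the lowest, a ratio that 1.68% of the 13960 genes with a mean of at least 10 exceeded when zeros were left out. Leaving out zeros narrows the range of genes that have them, so this share is a lower limit. Xrcc6, which encodes KU70, ranged from 718 to 1138 (1.59 times) and Prkdc, the kinase that Ku activates, from 1540.3 to 2257 (1.47 times).

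The log2 fold change of Xrcc5 was 1.73 ± 0.55 (95% interval 0.53 to 2.93, adjusted p = 0.076 in limma) for stably expanded over pre-malignant and -0.08 ± 1.25 (adjusted p = 0.988) for de novo expanded over pre-malignant. The stably expanded libraries lay above all pre-malignant libraries and close together, and the de novo expanded libraries lay on both sides of them. The cause was not tested.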
